A study of Bos taurus with 8 samples.

Results

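Sphingolipid and ceramide metabolism was followed in bovine granulosa cells through 38 genes that make, convert or break down ceramide or that make and sense sphingosine 1-phosphate. A gene was taken as a member by its symbol, and it was read from its brightest probe set among those annotated with that symbol alone. All 38 listed genes were measured, each by 1 probe set, among 18010 measured genes in all. The NEFA group was 4 arrays of primary granulosa cells cultured with a mix of non-esterified fatty acids. The BSA group was 4 arrays of the same cell type cultured with bovine serum albumin, the protein that carries fatty acids in blood. Both groups grew without serum in alpha-MEM with follicle-stimulating hormone (FSH), insulin-like growth factor 1 (IGF-1) and androstenedione, received their NEFA or BSA medium on day 2 and day 4, and were collected on day 6. The sources used here do not give the dose and makeup of the mix, the age and number of the cows, or whether cells were pooled. The labels do not say whether arrays of a group came from separate animals or cultures, so each p-value weighs a difference against the variation among these arrays alone, and that variation may be technical.

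Sphingolipids are built on a long-chain amino alcohol that serine palmitoyltransferase makes from serine and palmitoyl-CoA, the activated form of a common dietary and body-fat fatty acid. The product is reduced, joined to another fatty acid by a ceramide synthase and desaturated to ceramide, which is then turned into sphingomyelin or glucosylceramide or is cut back to sphingosine. Ceramide is known as a signal that favours cell death, in ovarian cells among others, while sphingosine 1-phosphate is known to favour survival and acts on receptors at the cell surface.

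With NEFA, 2 genes of early synthesis fell and 1 ceramide synthase rose. SPTLC2, a catalytic subunit of serine palmitoyltransferase, was 1.27-fold lower, and KDSR, the reductase that follows it, was 1.19-fold lower. CERS1, a ceramide synthase that in mouse and human prefers stearoyl-CoA, was 1.21-fold higher. The other 35 genes did not pass an adjusted p of 0.05 in limma, so 7.89% of the 38 passed, where 2.35% of all measured genes did (0.999% higher and 1.35% lower). Of the members 33 lay outside the dimmest 33.3% of probe sets, as did 13053 of all measured genes, of which 3.11% passed. Some of the 33 were close to that cut of 3.556, as DEGS2, S1PR3 and SMPD3 with means of 3.59, 3.96 and 3.99. The 3 calls are few, and each ended in at least 1 of the fits described further on. The member changes ran from -0.49 for UGCG to 0.35 for CERS6 on the log2 scale, with a median of -0.01. Over all measured genes the median change was 0.005.

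**Figure D1:**
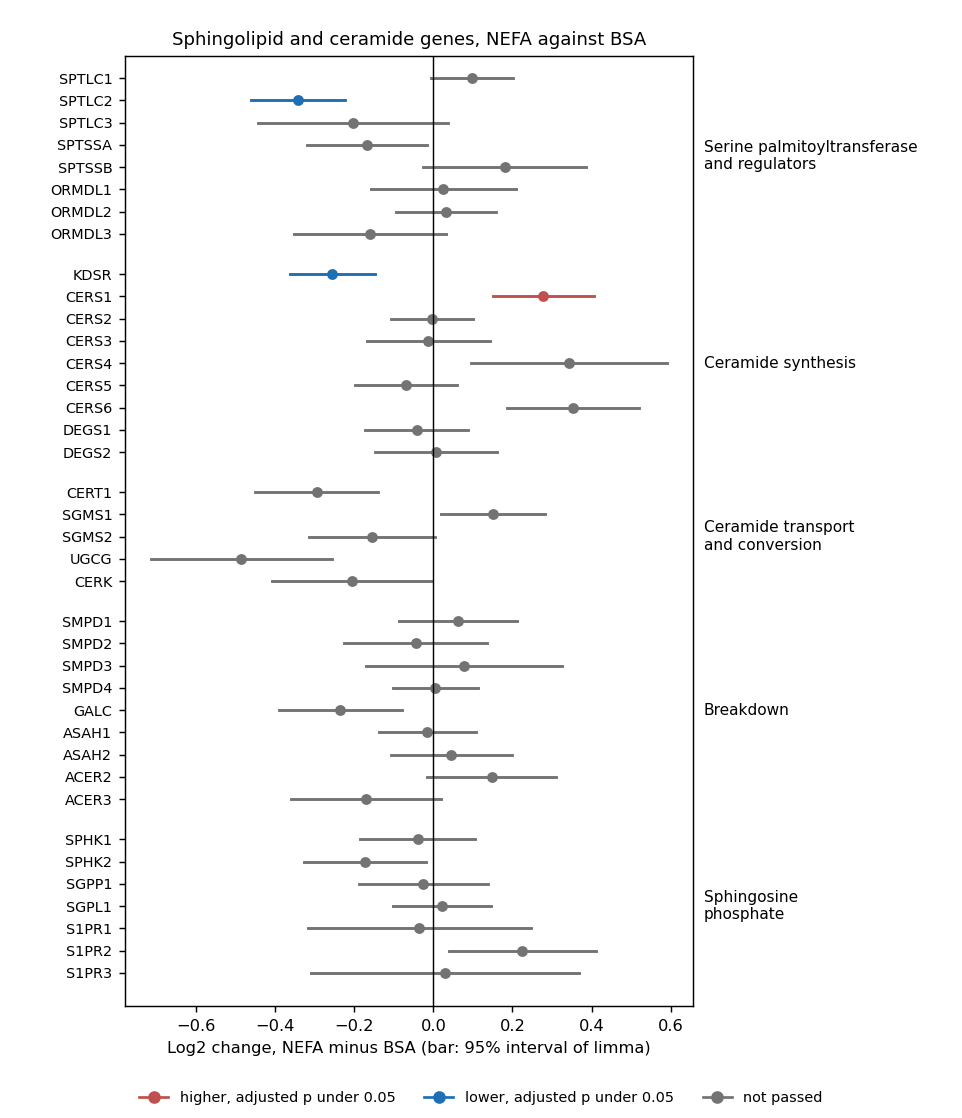
Log2 change (NEFA minus BSA) of each of the 38 genes, by step of the pathway; points are estimates from 4 against 4 arrays and bars their 95% intervals. SPTLC2 and KDSR lie below 0 and CERS1 above it with adjusted p under 0.05, and the largest change of all, that of UGCG at -0.49, has a wide interval from -0.71 to -0.26.

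The cells carried the 10 transcripts listed as granulosa markers. All 10 were outside the dimmest 33.3% of probe sets, as were 13053 of the 18010 measured genes. AMH was the lowest of them, at 5.54 over the 8 arrays. FSHR, the FSH receptor, averaged 7.65 ± 0.14 on the log2 scale in NEFA arrays and 7.49 ± 0.07 in BSA arrays (SD, n = 4 each). The 10 summed to 10278 to 11092 on the linear scale with NEFA and 9842 to 10561 with BSA, with overlapping ranges. This sum is weighted to its brightest genes, INHBA, GJA1 and CDH2, which averaged 11.6, 11.6 and 10.9 on the log2 scale. In limma 0 of 10 passed, 5 had a positive and 5 a negative change, and before adjustment p was under 0.05 for 2 higher and 1 lower. These were CYP19A1, the aromatase that makes estrogen, at 0.51, the gap junction gene GJA1 at 0.13 and the transcription factor gene NR5A1 at -0.21 (limma, adjusted p = 0.167, 0.226 and 0.199), named after their values were seen. Markers of other cells moved in part. The 5 fibroblast and stroma markers, summed on the linear scale, reached 7395 to 8279 with NEFA and 6853 to 7178 with BSA, so the ranges did not overlap. Of these, DCN rose by 0.53 and PDGFRA fell by 0.30 on the log2 scale (limma, adjusted p = 0.0203 and 0.0419), and 3 did not pass. The 3 were LUM, the brightest of the list and the gene that weighs most in its sum, at 0.13, and the collagen genes COL1A1 and COL1A2. These collagen genes changed by 0.035 and -0.05 with overlapping groups. With 1 array left out, DCN lost its call in 4 of 8 fits (limma, adjusted p up to 0.0671, without BSA 3) and PDGFRA in all 8 (0.0612 to 0.113, the highest without BSA 3). The 4 measured smooth muscle markers summed to 238 to 334 with NEFA and 205 to 220 with BSA, without overlap. In limma 0 of 4 passed. All 4 had positive changes, with a median of 0.355, the highest of the marker lists. Before adjustment, p was under 0.05 for 3 higher, where 7.9% of all measured genes were higher at that p. The 8 endothelial markers summed to 111 to 119 with NEFA and 115 to 122 with BSA. VWF fell by 0.35 (limma, adjusted p = 0.0392), 7 did not pass and 5, among them PECAM1 and CDH5, lay in the dimmest 33.3%. VWF lost its call in 7 of 8 fits with 1 array left out (limma, adjusted p up to 0.107, without BSA 3) and without variance moderation (0.0527). Sums of the theca, leukocyte and epithelial markers overlapped between the groups, and 0 of their 13 markers passed in limma (before adjustment, p was under 0.05 for 4 higher and 1 lower). All 4 theca markers had positive changes, with a median of 0.22. For 3 of these 4, p was under 0.05 before adjustment, where 7.9% of all measured genes were higher at that p. INSL3, a theca marker, averaged 8.09 with NEFA and 7.87 with BSA, values above those of FSHR. These are values of different probe sets, and whether INSL3 was the more abundant transcript was not tested. CYP17A1 and LHCGR, 2 of the 4, lay in the dimmest 33.3%. RMA values never reach 0, so no marker was at 0. The part of the stromal, smooth muscle and theca transcripts in the sphingolipid results was not tested. In bulk RNA fewer cells of a type and less RNA per cell cannot be told apart.

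Serine palmitoyltransferase and its regulators held the clearest fall. SPTLC2 (probe set 12696405) read 8.30, 8.37, 8.28 and 8.36 on the 4 NEFA arrays, against 8.70, 8.67, 8.72 and 8.59 on the 4 BSA arrays. Every NEFA array lay below every BSA array, with a gap wider than the range of either group. The mean was 8.33 ± 0.04 with NEFA and 8.67 ± 0.06 with BSA (SD, n = 4 each), a change of -0.34 (SE 0.05; limma, adjusted p = 0.0169). SPTLC2 is overlapped by 2 uncharacterised protein-coding loci in the RefSeq annotation, and the probe positions are not known, so a contribution of these loci to the signal was not tested.

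The partners of SPTLC2 in the enzyme did not pass. SPTLC1, the subunit that every form of the enzyme contains, read 8.32, 8.30, 8.29 and 8.28 with NEFA, against 8.18, 8.17, 8.21 and 8.24 with BSA. All 4 NEFA arrays stood above all 4 BSA arrays, but by only 0.10 in the mean (SE 0.05; limma, adjusted p = 0.341). SPTLC3, the alternative to SPTLC2 that in human cells also accepts shorter acyl chains, changed by -0.20 with overlapping groups (95% interval -0.44 to 0.04). Of the small activating subunits, SPTSSA changed by -0.17 (limma, adjusted p = 0.268), and SPTSSB, which lay in the dimmest 33.3%, by 0.18 (limma, adjusted p = 0.374). SPTSSA stood at 7.50 to 7.76 with NEFA and 7.77 to 7.83 with BSA, so its groups just missed overlapping. The ORMDL proteins hold the enzyme back when ceramide is plentiful. ORMDL1, ORMDL2 and ORMDL3 changed by 0.03, 0.03 and -0.16, none passed, and centring each array on its median turned the small values of ORMDL1 and ORMDL2 below 0. Among these 8 genes 1 fell, 0 rose and 7 did not pass in limma, with a median change of -0.07. Before adjustment, p was under 0.05 for 2 lower and 0 higher genes of the 8, and for 8 lower and 5 higher of all 38, where 8.92% and 7.9% of all measured genes were lower and higher at that p.

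**Figure D2:**
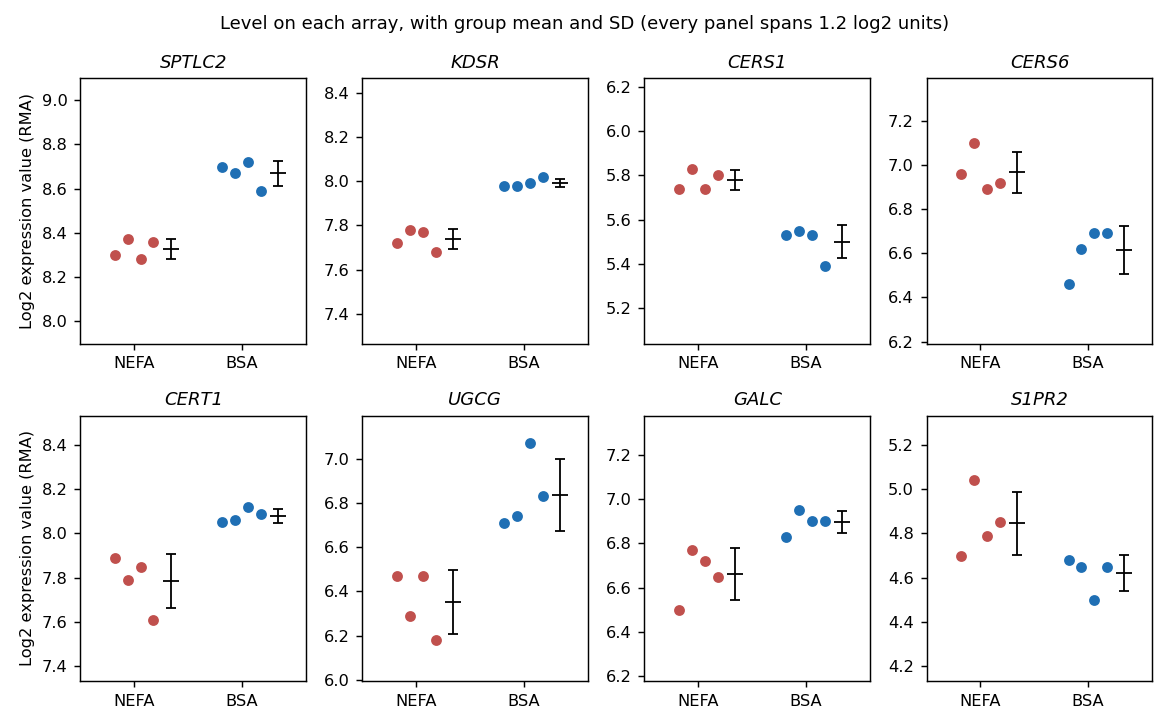
Log2 expression value (vertical axis) of 8 genes on each of the 4 NEFA and 4 BSA arrays, each panel spanning the same height, with the group mean and SD at the side. In all 8 panels the groups do not overlap, as for SPTLC2 with NEFA arrays at 8.28 to 8.37 and BSA arrays at 8.59 to 8.72. GALC, S1PR2, CERT1, CERS6 and UGCG did not pass the threshold. The 8 genes were chosen because they passed, came next to the threshold or had the smallest p of their step. Of all 38 genes 26.3% did not overlap, and of all measured genes 12.4%.

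Among the genes that turn the first product into ceramide, the reductase fell and 1 of the ceramide synthases rose. KDSR (probe set 12809270) reduces the ketone that serine palmitoyltransferase releases. It read 7.72, 7.78, 7.77 and 7.68 with NEFA, against 7.98, 7.98, 7.99 and 8.02 with BSA, and the BSA arrays lay within 0.04 of each other. Its mean was 7.74 ± 0.05 with NEFA and 7.99 ± 0.02 with BSA (SD, n = 4 each; change -0.26, SE 0.05; limma, adjusted p = 0.0361). SPTLC2 and KDSR thus encode consecutive enzymes, and both were lower on all 4 NEFA arrays than on any BSA array.

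The 6 ceramide synthases differ in the fatty acid they attach, as known from mouse and human work. CERS1 (probe set 12881746) read 5.74, 5.83, 5.74 and 5.80 with NEFA, against 5.53, 5.55, 5.53 and 5.39 with BSA. The NEFA arrays were all above the BSA arrays, and BSA 4 was the lowest array of all. The change was 0.28 (SE 0.06; limma, adjusted p = 0.0465), with means of 5.78 ± 0.05 with NEFA and 5.50 ± 0.07 with BSA (SD, n = 4 each). Centring each array on its median lowered it to 0.24 and ended the call (limma, adjusted p = 0.0814). CERS1 overlaps GDF1 in the RefSeq gene table, and in mouse and human the genes are known to share a transcript. The probe set annotated as GDF1 averaged 5.48 ± 0.10 with NEFA and 5.44 ± 0.06 with BSA and did not pass (limma, adjusted p = 0.828), with overlapping groups.

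CERS6, which prefers palmitoyl-CoA, was just outside the threshold. It read 6.96, 7.10, 6.89 and 6.92 with NEFA, against 6.46, 6.62, 6.69 and 6.69 with BSA. The groups stood apart and the change of 0.35 (SE 0.07) was the highest of the 38 genes, but the spread within both groups was wider than for CERS1 (limma, adjusted p = 0.052). CERS5, which shares the preference for palmitoyl-CoA, changed by -0.07 with overlapping groups (95% interval -0.20 to 0.06, against 0.19 to 0.52 for CERS6). CERS2, which makes ceramides with very long chains and was among the bright transcripts, averaged 10.03 ± 0.03 with NEFA and 10.04 ± 0.02 with BSA (SD, n = 4 each), and its 95% interval reached from -0.11 to 0.10. CERS4 changed by 0.34 with a wide interval of 0.10 to 0.59 (limma, adjusted p = 0.168), and it lay in the dimmest 33.3% together with CERS3, which is known from skin and testis and changed by -0.01. Of the 6 synthases 1 rose, 0 fell and 5 did not pass in limma, and their median change was 0.14. Before adjustment, p was under 0.05 for 3 higher and 0 lower. Over all measured genes 7.9% and 8.92% were higher and lower at that p. Whether the synthases differed from each other in their change was not tested.

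The desaturases that put the double bond into ceramide did not pass. DEGS1 averaged 9.40 ± 0.07 with NEFA and 9.44 ± 0.06 with BSA (SD, n = 4 each; 95% interval of the change -0.17 to 0.09). DEGS2, which also adds a hydroxyl group, changed by 0.01, or by -0.03 after array centring and -0.05 after a further quantile normalization, and 0 of the 2 passed in limma, also before adjustment.

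**Figure D3:**
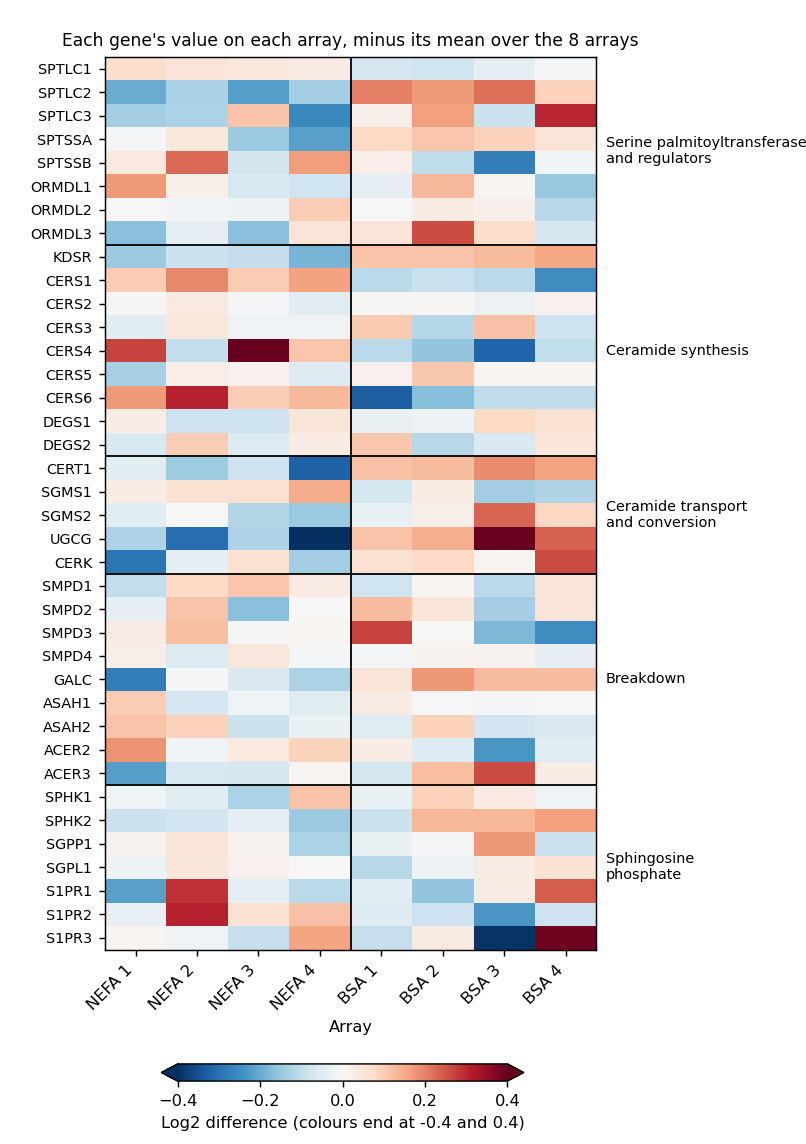
Each of the 38 genes (rows, by step) on each of the 8 arrays (columns, NEFA at the left), as the log2 difference from the mean of that gene over all arrays; red is above and blue below that mean. SPTLC2, KDSR, CERT1 and UGCG are blue on all 4 NEFA arrays and red on all 4 BSA arrays and CERS1 and CERS6 the reverse, while most breakdown and sphingosine phosphate genes show no such border.

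Genes that move ceramide onward had mostly lower values with NEFA, but 0 of 5 passed in limma. Before adjustment, p was under 0.05 for 3 lower and 1 higher. Over all measured genes 8.92% and 7.9% were lower and higher at that p. The median change of these 5 genes was -0.21, the lowest of the 5 steps. It ranged from -0.26 without NEFA 3 to -0.15 without BSA 4 over the fits that left out 1 array. UGCG (probe set 12890269) makes glucosylceramide, from which most glycosphingolipids are built. It read 6.47, 6.29, 6.47 and 6.18 with NEFA, against 6.71, 6.74, 7.07 and 6.83 with BSA. All NEFA arrays were below all BSA arrays, but both groups were spread more widely than for SPTLC2. The 1.40-fold lower mean missed the threshold narrowly (change -0.49, SE 0.10; limma, adjusted p = 0.0517).

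CERT1 carries ceramide from the endoplasmic reticulum to the Golgi for sphingomyelin synthesis. It read 7.89, 7.79, 7.85 and 7.61 with NEFA, against 8.05, 8.06, 8.12 and 8.09 with BSA. The groups did not overlap, with NEFA 4 the lowest array, and the change of -0.30 did not pass (SE 0.07; limma, adjusted p = 0.0738). The full array values of CERS6 and CERT1 are given because they came next to the threshold, a choice made after their values were seen. The sphingomyelin synthases pointed different ways: SGMS1 of the Golgi changed by 0.15 (95% interval 0.02 to 0.28) and SGMS2 of the cell surface by -0.16 (95% interval -0.31 to 0.004). CERK, which phosphorylates ceramide, changed by -0.21 with overlapping groups (limma, adjusted p = 0.307).

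No gene of sphingolipid breakdown passed. In limma the count was 0 of 9 genes (before adjustment, p was under 0.05 for 1 lower and 0 higher), and the median change was 0.005. The sphingomyelinases SMPD1, SMPD2, SMPD3 and SMPD4 changed by 0.06, -0.05, 0.08 and 0.01 with overlapping groups, and array centring took SMPD4 to -0.03. ASAH1, the lysosomal ceramidase, averaged 8.92 ± 0.08 with NEFA and 8.94 ± 0.02 with BSA (SD, n = 4 each), a difference smaller than the spread of the NEFA arrays.

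The 95% interval of ASAH1 reached from -0.14 to 0.11, and its sign turned with a further quantile normalization. ACER2, a Golgi ceramidase, and ACER3, an alkaline ceramidase, changed by 0.15 and -0.17 (limma, adjusted p = 0.36 and 0.363), and the neutral ceramidase ASAH2, in the dimmest 33.3%, by 0.05. The smallest p of the step was that of GALC, the lysosomal enzyme that removes galactose from galactosylceramide. GALC (probe set 12696080) read 6.50, 6.77, 6.72 and 6.65 with NEFA, against 6.83, 6.95, 6.90 and 6.90 with BSA. Its groups did not overlap, but NEFA 2 came within 0.06 of BSA 1, and the change of -0.24 did not pass (SE 0.07; limma, adjusted p = 0.135).

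The sphingosine 1-phosphate genes likewise gave 0 of 7 in limma (before adjustment, p was under 0.05 for 1 higher and 1 lower), with a median change of -0.03. SPHK1 and SPHK2 phosphorylate sphingosine. SPHK1 averaged 5.52 ± 0.10 with NEFA and 5.56 ± 0.06 with BSA (SD, n = 4 each). SPHK2 changed by -0.17 (limma, adjusted p = 0.258), with BSA 1 at 6.15 inside the NEFA range and the other BSA arrays at 6.37 to 6.40. SGPP1, which removes the phosphate, and SGPL1, the lyase that ends the pathway, changed by -0.03 and 0.02, and both changed sign in other fits.

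Of the receptors, S1PR2 (probe set 12887362) had the smallest p. It read 4.70, 5.04, 4.79 and 4.85 with NEFA, against 4.68, 4.65, 4.50 and 4.65 with BSA. The groups were 0.02 apart at their nearest arrays, and the change of 0.23 did not pass (SE 0.08; limma, adjusted p = 0.221). S1PR1, known for its role in endothelial cells and lymphocytes, lay in the dimmest 33.3% and changed by -0.04, and S1PR3 changed by 0.03. Both had wide intervals, from -0.32 to 0.25 and from -0.31 to 0.37, and their signs turned in other fits.

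Counted over the steps, 3 of 17 synthesis genes passed in limma, against 0 of 5 conversion genes, 0 of 9 breakdown genes and 0 of 7 sphingosine phosphate genes. Over all measured genes 2.35% passed, and 3.11% outside the dimmest 33.3%, so lists as short as these can hold 0 calls at that share alone. The median absolute log2 change was 0.16 for synthesis and 0.21 for conversion, compared with 0.06 for breakdown, 0.04 for sphingosine phosphate and 0.09 over all measured genes. Genes whose groups did not overlap numbered 6 of 17, 2 of 5, 1 of 9 and 1 of 7 in the same order, together 10 of 38 or 26.3%. Of the 10, NEFA was below BSA in 6 and above it in 4, where 7.2% and 5.19% of all measured genes did the same. The share of all measured genes without overlap was 12.4%, and 15.8% outside the dimmest 33.3%. Since the genes were chosen with earlier results of these data known, the steps were not tested against each other.

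Of 38 further genes of the pathway 34 were measured, and 1 fell, 0 rose and 33 did not pass in limma (before adjustment, p was under 0.05 for 4 lower and 3 higher). These shares, 2.94% passing and 20.6% before adjustment, were near the 2.35% and 16.8% of all measured genes. B4GALT5 adds galactose to glucosylceramide, the product of UGCG, and so makes lactosylceramide. It read 7.85, 7.84, 7.94 and 7.84 with NEFA, against 8.22, 8.28, 8.28 and 8.31 with BSA. No NEFA array came closer than 0.28 to a BSA array, and the change was -0.41 (SE 0.05; limma, adjusted p = 0.00645). B4GALT6, the other lactosylceramide synthase, changed by -0.11 with overlapping groups (95% interval -0.24 to 0.02), and ST3GAL5, which adds sialic acid to lactosylceramide, by -0.09. The call of B4GALT5 held in all 8 fits with 1 array left out (limma, adjusted p from 0.0153 to 0.0306) but not with the replicate number as a block (0.072).

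The remaining lists held no call in limma as reported. CPTP passed in 4 of the 7 other fits on 8 arrays without a block. PLPP3 passed in 2 of those 7 fits and without NEFA 4 (limma, adjusted p = 0.0444). With the replicate number as a block neither passed (limma, adjusted p = 0.154 and 0.207). Before adjustment, p was under 0.05 for 2 of 9 synthesis and transport genes, 3 of 10 breakdown genes and 1 of 7 sphingosine phosphate genes. Over all measured genes that share was 16.8%. Among the synthesis and transport genes the smallest p was that of CPTP, which carries ceramide 1-phosphate, with a change of -0.26 (limma, adjusted p = 0.0591) and 7.47 to 7.65 on NEFA arrays against 7.77 to 7.83 on BSA arrays. Among the breakdown genes it was that of ARSA, the lysosomal arylsulfatase that acts on sulfatide, at 0.22 (limma, adjusted p = 0.161). Among the sphingosine phosphate genes it was that of PLPP3, a phosphatase of lipid phosphates at the cell surface, at 0.32 (limma, adjusted p = 0.0756). PLPP3 stood at 7.95 to 8.23 with NEFA and 7.72 to 7.87 with BSA, so its groups did not overlap.

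**Figure D4:**
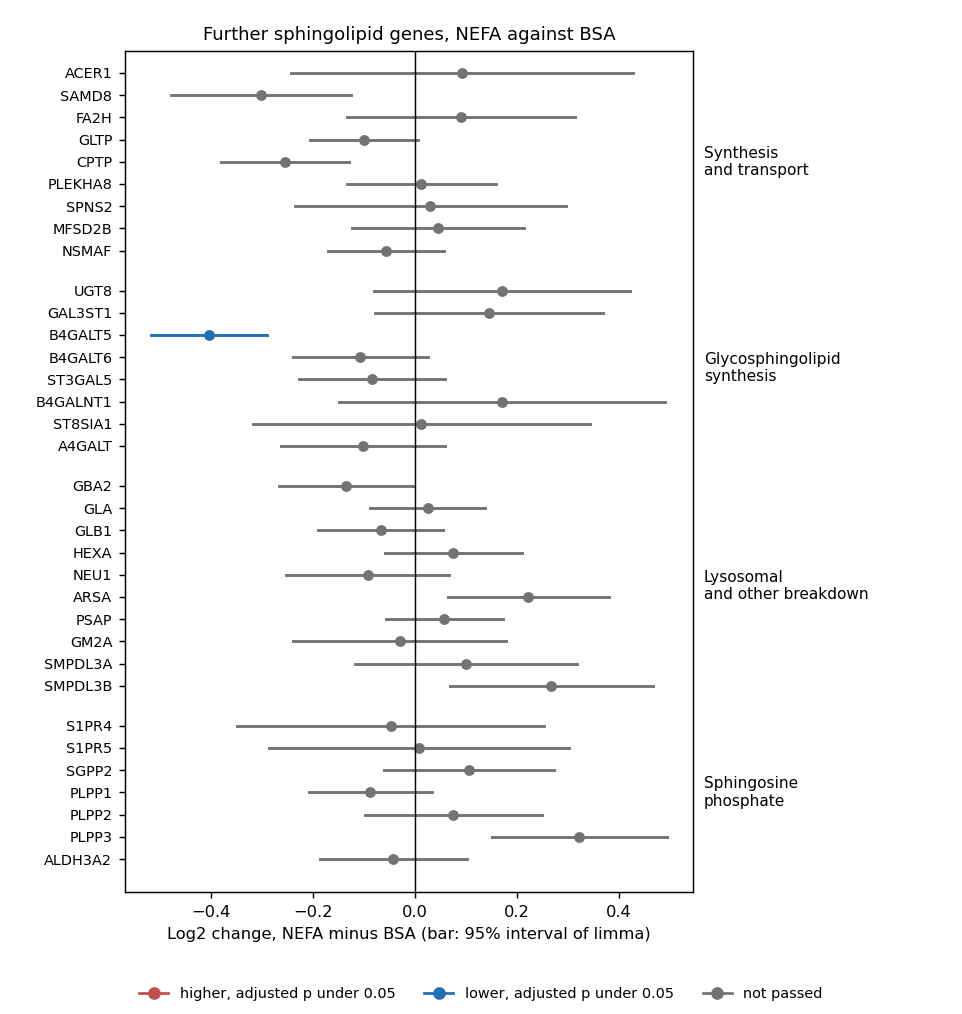
Log2 change (NEFA minus BSA) of 34 further sphingolipid genes, by list; points are estimates from 4 against 4 arrays and bars their 95% intervals. B4GALT5 at -0.41 is the only gene drawn as passing, and most intervals include 0.

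The calls near the threshold depended on the number of arrays, the scaling, the filter on dim probe sets, the variance model and the replicate block. SPTLC2 kept its call in all 7 other fits on 8 arrays without a block (limma, adjusted p from 0.000163 to 0.0238) and lost it in 5 of 8 fits with 1 array left out, with the highest adjusted p of 0.0585 without BSA 3. KDSR kept its call in the same 7 fits (limma, adjusted p from 0.00193 to 0.0437) and lost it in all 8 with 1 array left out (0.0762 to 0.0989, the highest without BSA 3). CERS1 kept its call in 6 of those 7 fits and lost it with array centring (limma, adjusted p = 0.0814). With 1 array left out CERS1 lost it in all 8 as well (0.0904 to 0.124, the highest without NEFA 2). The changes themselves stayed between -0.38 and -0.32 for SPTLC2, -0.29 and -0.23 for KDSR and 0.24 and 0.29 for CERS1. With 7 arrays the number of all genes past the threshold also fell, to 164 to 260, against 423 with 8 arrays. UGCG and CERS6 each passed in 3 of the 7 other fits and CERT1 in 2. The lowest adjusted p of these, with trend and robust variance estimates, were 0.00463 for UGCG, 0.0066 for CERS6 and 0.00599 for CERT1 (limma).

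**Figure D5:**
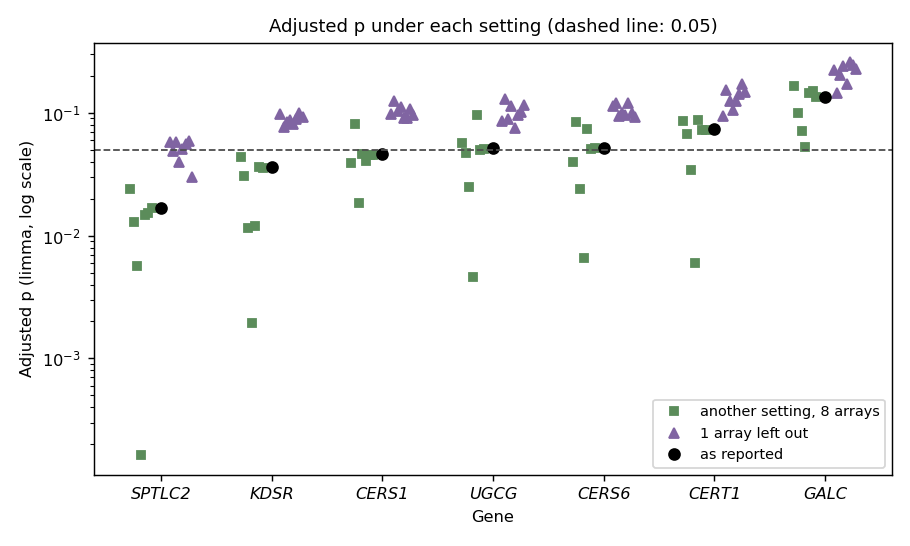
Adjusted p of limma (vertical axis, log scale) for 7 genes as reported (black) and in 7 other fits with 8 arrays and no block (squares). Triangles are fits with each array left out in turn, and the dashed line is 0.05. The fit with the replicate number as a block is not drawn. In that fit SPTLC2, KDSR and CERS1 did not pass (limma, adjusted p = 0.114, 0.154 and 0.157). SPTLC2 lies under the line in all squares and reaches 0.0585 in the triangles, whereas UGCG, CERS6 and CERT1 start at 0.0517, 0.052 and 0.0738, above it.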

How the data were processed

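Per the submitters' processing notes, the authors used RMA, and the deposited values are log2 expression values of 8 arrays. The method corrects background, equalises array distributions and gives 1 value per probe set. The sources used here do not give the software version, probe annotation or genome build. There were 24415 probe sets, from 0.64 to 13.49 on the log2 scale, with array medians of 4.78 to 4.86. Arrays give no read depth or detection call, so their number limits the precision. No 2 arrays were identical, and Pearson correlations across probe sets were 0.9935 to 0.9948 within groups and 0.9914 to 0.9935 between them.

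Of the probe sets, 18457 had 1 symbol in the platform annotation, 688 several and 5270 none. Symbols were brought up to date with the RefSeq genes of ARS-UCD2.0, matched on gene ID, and all 38 members were found there. NEFA minus BSA was fitted over all probe sets with limma 3.58.1 (lmFit, eBayes) in R 4.3.3, adjusted by Benjamini-Hochberg over all of them, with a threshold of 0.05. The procedure was tested on simulated data with arrays drawn independently, which does not cover variation shared among arrays. Changes are given with the SE or 95% interval of limma. "Dimmest 33.3%" refers to the mean over the 8 arrays, here under 3.556. The members and lists were chosen with earlier results of these data known, so no list was tested. Full array values are given for genes past the threshold and for the smallest p in each step, and, chosen after their values were seen, for SPTLC1, CERS6 and CERT1. Alternatives changed scaling, the filter on dim probe sets, the variance model, array weights, the probe set rule, the arrays used or added a replicate block. Deviations of same-numbered arrays of the groups correlated at -0.014, 0.047, 0.041 and 0.073, the last the highest of all pairs. Those of differently numbered arrays correlated at -0.097 to 0.056. Whether the numbers pair arrays across the groups is not known.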

Additional observations from a re-analysis of the deposited data

Results flagged for a closer look

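In 5 of 76 groups of 4 arrays 1 array stood apart from the other 3 of its group by Dixon's criterion, and chance alone marks about 1 group in 20. ORMDL2 read 8.28 on NEFA 4, and 8.16 to 8.18 on the other NEFA arrays. CERS1 read 5.39 on BSA 4, against 5.53 to 5.55 on the other BSA arrays, and without BSA 4 its change was 0.241 and did not pass (limma, adjusted p = 0.0968). CERS5 read 8.10 on BSA 2, with at most 8.01 on the other BSA arrays. SPHK2 read 6.15 on BSA 1 and 6.37 to 6.40 on the other BSA arrays, and without BSA 1 its change was -0.230 (limma, adjusted p = 0.105). S1PR2 read 4.50 on BSA 3 and 4.65 to 4.68 on the others.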

How the results depend on the processing

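Counts of sphingolipid genes past the threshold, 1 higher and 2 lower, moved with several settings. They were 2 and 2 with a further quantile normalization, 0 and 3 with array centring, and 2 and 4 both without the dimmest probe sets (5 members left out) and with trend and robust eBayes. Over all genes the count was 423, with 790 and 1097 in those last settings. With the replicate number as a block it was 77, with 0 higher and 0 lower members (limma, adjusted p = 0.114 for SPTLC2, 0.154 for KDSR and 0.157 for CERS1), and B4GALT5, PDGFRA and VWF did not pass either (0.072, 0.113 and 0.094), while DCN did (0.0487). The numbers were not shown to pair the samples, and no correlation was over 0.1. Leaving out 1 array gave 0 members higher, 0 to 1 lower and 164 to 260 genes in all. With 1 array left out the median change ran from -0.079 to -0.026 for serine palmitoyltransferase and its regulators, from -0.028 to 0.021 for ceramide synthesis, from -0.259 to -0.153 for transport and conversion and from -0.038 to 0.040 for sphingosine phosphate. Array centring moved the medians of the first, second and breakdown steps to -0.103, -0.038 and -0.030, and leaving out the dimmest probe sets moved that of the first to -0.160, since fewer members remained. Signs turned for some uncalled changes close to 0. With a further quantile normalization these were CERS2 (0.025), DEGS2 (-0.051), ASAH1 (0.005) and S1PR3 (-0.026). With array centring they were ORMDL1 (-0.010), ORMDL2 (-0.003), DEGS2 (-0.028), SMPD4 (-0.030), SGPL1 (-0.013) and S1PR3 (-0.005), and with array weights CERS2 (0.002). Over fits without 1 array the changes ran from -0.052 to 0.005 for ASAH1, -0.015 to 0.012 for CERS2, -0.053 to 0.024 for CERS3, -0.028 to 0.045 for DEGS2, -0.028 to 0.072 for ORMDL1, -0.138 to 0.040 for S1PR1, -0.096 to 0.164 for S1PR3, -0.011 to 0.046 for SGPL1, -0.058 to 0.028 for SGPP1, -0.098 to 0.003 for SMPD2 and -0.009 to 0.024 for SMPD4. The cause of these shifts was not tested.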
